A study of Rattus norvegicus with 12 samples.

Results

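The 3 libraries of the OGD/R + si-NC group were set against the 3 of the OGD/R + NC group, which are 6 of the 12 libraries of the series. By their names these groups are the controls of OGD/R + si-CIRBP and OGD/R + CIRBP, and the labels spell out neither NC nor si-NC. All 12 libraries came from cells that had gone through oxygen-glucose deprivation and reperfusion (OGD/R), a culture model of ischaemia, so no untreated library entered any comparison. The 6 were chosen by the titles alone, which number the replicates of each group and call them biological. Nothing in the sources used here says whether they were separate cultures, whether both controls used the same stock of cells, or how the agents were delivered. The prefix ad stands before the column names of NC and CIRBP and is absent from those of si-NC and si-CIRBP. The p-values therefore measure the spread between these libraries, and the agent, the prefix and the arm of the study cannot be told apart in any difference given here.

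The titles and tissue label name H9C2, a line from embryonic rat heart that is used as a cardiac myoblast and can form skeletal muscle fibres, while the cell line label names rat astrocytes, the star-shaped glia of the brain. Myoblasts are held in the muscle lineage by transcription factors such as Myod1 and Myog, and contractile genes follow when they differentiate. Smooth muscle actin and its partners mark smooth muscle, myofibroblasts and immature muscle cells. Chemokines of the NF-kB pathway draw leukocytes to stressed tissue, and clock genes set the daily rhythm of transcription in nearly every cell type. Values are given in FPKM, the fragments of a gene scaled to its length and to the fragments of the library, as the authors deposited them. In bulk libraries fewer cells of a type and less RNA per cell cannot be told apart.

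Neither cell label matched its defining markers in the NC libraries. There Myod1 stood at or under 0.0819 FPKM, Myog at or under 0.0275 FPKM and Gata4 at or under 0.0357 FPKM, and Nkx2-5 was listed at 0 in all 3. Of the 26 skeletal and cardiac muscle markers in the table, 18 had an NC mean under 1 FPKM, and their summed level was 22.5 to 25.4 FPKM. Of the 11 astrocyte markers, 5 had an NC mean under 1 FPKM, and the summed level of 228 to 242 FPKM came mostly from S100b. Gfap, the intermediate filament of astrocytes, stood at 4.74, 4.24 and 4.52 FPKM. Some genes of the glial and neural crest lists were abundant in NC. Sox10, a transcription factor of neural crest and oligodendrocyte lineages, stood at 203, 203 and 202 FPKM. S100b, of the astrocyte list, stood at 164, 155 and 165 FPKM. Of the 12 oligodendrocyte and progenitor markers in the table, 5 had an NC mean under 1 FPKM. The same held for 1 of the 12 Schwann and neural crest markers. Sox10 stood at 193, 145 and 155 FPKM in si-NC, and S100b at 165, 116 and 133 FPKM. Neither difference passed the test, and both were called lower without si-NC library 1 (adjusted p = 0.00126 and 0.00749 with limma). Sox10 was also called lower with a filter of 5 FPKM (0.0497), in a fit of all 12 libraries (0.0159) and when each group had a variance of its own (0.0294). The cells are called here by their group names only.

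The si-NC libraries did not form a uniform group. On the first principal component, which held 74.6% of the variance, the NC libraries lay at -29.4, -29.3 and -29.1 and si-NC libraries 1, 2 and 3 at 4.35, 47.2 and 36.2. Pearson correlations of log2(FPKM + 1) across genes, which are not independent replicates, were 0.990 to 0.992 within NC. They were 0.961 between si-NC libraries 1 and 2, 0.977 between 1 and 3, 0.987 between 2 and 3, and 0.973 to 0.974 between si-NC library 1 and NC. The median SD of a gene on that log2 scale was 0.0530 in NC, 0.128 in si-NC and 0.0920 over si-NC libraries 2 and 3. On that component library 1 stood between its own group and NC. On the second, which held 11.2%, it lay at -24.3, outside the range of -5.28 to 15.2 of the other 5. Results that rest on it are given with and without it. Summed expression was 457775 to 490799 FPKM per library. How deep each was sequenced is unknown. From the spacing of low values, depth relative to NC library 1 was estimated at 0.843 to 0.972 in the others.

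Of 13325 genes tested, 4589 (34.4%) differed between si-NC and NC at an adjusted p under 0.05 in a limma fit of the 6 libraries. The calls were 1418 genes higher in si-NC (10.6%) and 3171 lower (23.8%), and 6260 genes had an unadjusted p under 0.05. The median difference of all genes was -0.08 on the log2(FPKM + 1) scale, and the direction of small differences moved with scaling. Scaling to one median gave 1837 higher and 2692 lower calls, and scaling by median ratios gave 2246 and 2381, so the share of lower calls was 69.1%, 59.4% or 51.5%. A difference of at least 1 on that scale was found in 219 genes higher (1.64%) and 92 lower (0.69%). All 3 si-NC values lay above all 3 NC values in 2323 genes (17.4%) and below them in 4755 (35.7%). The filter let 161 genes in through si-NC alone, 142 of which were called higher, and 183 through NC alone, 151 of which were called lower, so these calls follow in part from the filter. Without NC library 1, 2 or 3 the calls numbered 1608, 1672 and 1960, without si-NC library 3 2000, and without si-NC library 1 6542.

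**Figure D1:**
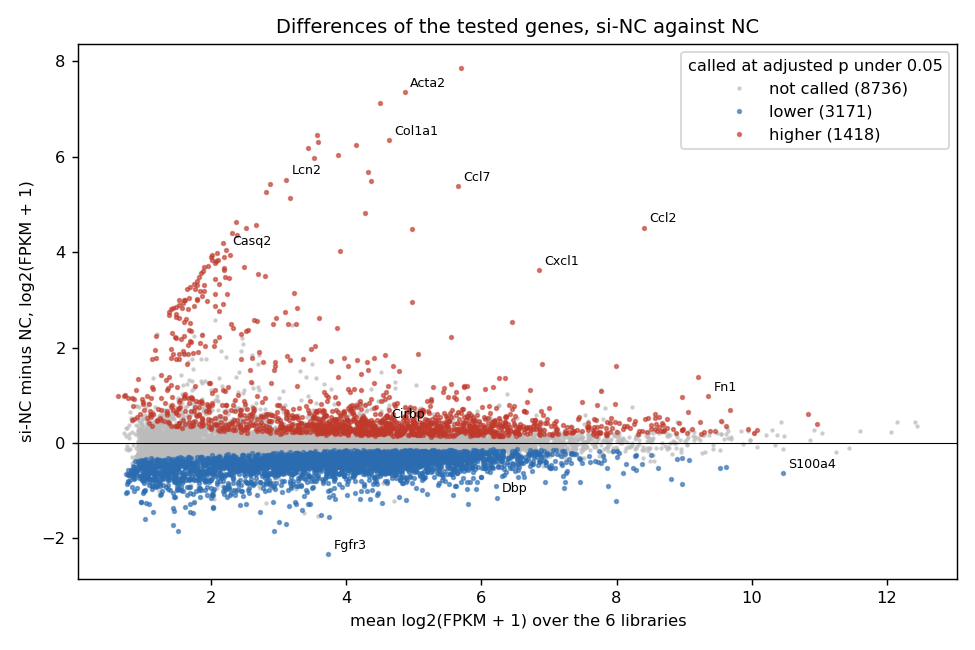
Difference of each of the 13325 tested genes (si-NC minus NC, log2(FPKM + 1), vertical axis) against its mean log2(FPKM + 1) over the 6 libraries (horizontal axis). Red and blue points are the 1418 genes called higher and the 3171 called lower with limma, grey points the other tested genes. The increases reach further from 0 than the decreases, as with Acta2 at 7.35 against Fgfr3 at -2.34.

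Cirbp (ENSRNOG00000015999), the cold-inducible RNA-binding protein after which the treated groups are named, was itself higher in si-NC. It stood at 19.03, 19.8 and 20.1 FPKM in NC and at 29.0, 24.2 and 27.0 FPKM in si-NC, so the groups did not overlap. The difference was 0.42 on the log2(FPKM + 1) scale (SE 0.0731, adjusted p = 0.00907 with limma), and it passed the test in each of the alternatives tried (adjusted p = 0.00121 to 0.0477). Rbm3, likewise induced by cold and also RNA-binding, stood at 219, 222 and 217 FPKM in NC and at 273, 272 and 273 FPKM in si-NC (0.31, SE 0.0415, adjusted p = 0.00438). Of the 10 tested cold-shock RNA-binding proteins these 2 were called higher (20%) and 3 lower (30%), against 10.6% and 23.8% of all genes. Called lower were Csdc2, from 6.15, 6.51 and 5.71 to 3.09, 2.17 and 2.65 FPKM, the splicing regulator Rbm5, from 49.9, 50.8 and 51.4 to 43.4, 40.7 and 40.9 FPKM, and Ybx3, a cold-shock domain protein chosen after its values were seen, whose call ended in 12 of the alternatives (adjusted p up to 0.385). The call of Rbm5 was lost in a fit of all 12 libraries (adjusted p = 0.0793), as was that of Csdc2 (0.0691).

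Contractile and collagen genes that were all but absent in NC were among the 15 largest named increases. Acta2 (ENSRNOG00000058039), smooth muscle actin, stood at 0.400, 2.18 and 1.66 FPKM in NC and at 73.8, 954 and 722 FPKM in si-NC (7.35 on the log2(FPKM + 1) scale, SE 0.957, adjusted p = 0.00411 with limma). The groups were far apart, and si-NC library 1 was far below libraries 2 and 3. Actg2, the enteric smooth muscle actin, stood at 0.0980, 0.393 and 0.320 FPKM against 20.5, 200.4 and 175 FPKM. Tagln, an actin-binding protein of smooth muscle, stood at 1.61, 1.91 and 1.88 FPKM against 29.2, 357 and 277 FPKM. Tpm2, the beta tropomyosin, and Myl9, a regulatory myosin light chain, showed the same order of libraries, at 18.0, 238 and 165 FPKM and at 21.0, 275 and 202 FPKM in si-NC. Both stood under 1 FPKM in each NC library. Of the 10 smooth muscle markers tested, 6 were called higher and none lower (60% higher, against 10.6% of all genes). Without si-NC library 1 9 were called higher, and without si-NC library 3 or any single NC library 4 were. The summed level of the 13 markers in the table was 320 to 327 FPKM in NC and 450.0, 2377 and 1859 FPKM in si-NC. Actg2, Tpm2, Myl9 and the list members Cnn1 and Lmod1 stood under 1 FPKM in each NC library. They entered the test through si-NC alone, so their calls follow in part from the filter.

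Of 11 tested skeletal and cardiac muscle markers, 4 were called higher and 1 lower (36.4% and 9.09%, against 10.6% and 23.8% of all genes). Some striated muscle genes were again near absent in NC and low in si-NC library 1. Myod1, which commits cells to the muscle lineage, was listed at 0 in NC library 1, stood at 0.0819 and 0.0424 FPKM in NC libraries 2 and 3, and at 1.74, 21.6 and 15.2 FPKM in si-NC (3.27, SE 0.746, adjusted p = 0.0198). Casq2, the calcium-binding protein of the sarcoplasmic reticulum, was at 0.138, 0.126 and 0.196 FPKM in NC and 3.45, 48.5 and 30.1 FPKM in si-NC. Klhl41, a sarcomere-stabilising protein, was at 0.471, 0.609 and 0.595 FPKM in NC and 3.43, 53.4 and 33.1 FPKM in si-NC. The calls for these 3 genes ended when si-NC library 3 or any single NC library was left out (adjusted p = 0.0550 to 0.0785 with limma). Myl4 and Neb were also called higher, and Tnni3, chosen after its values were seen, was called lower. Of the 5 called markers (Casq2, Klhl41, Myl4, Neb and Tnni3) none was called without si-NC library 3 or any single NC library, and 10 were called higher and 1 lower without si-NC library 1. In Myl4 and Neb the groups lay closer than in Casq2 and Klhl41. Myl4 stood at 5.42, 4.72 and 5.66 against 7.36, 11.4 and 8.07 FPKM and Neb at 0.707, 0.707 and 0.742 against 1.14, 1.89 and 1.49 FPKM. Myod1, Casq2, Klhl41 and Neb stood under 1 FPKM in each NC library. These genes entered the test through si-NC alone, so their calls follow in part from the filter.

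Myog, the late myogenic factor, was not tested because 1 si-NC library was under the minimum. It was listed at 0, 0.0275 and 0 FPKM in NC and at 0.798, 20.005 and 6.03 FPKM in si-NC. The other myogenic regulators moved differently. Mef2a stood at 39.8, 42.2 and 39.1 against 32.6, 32.4 and 32.0 FPKM and was called lower, as were Pax3, at 7.47, 6.70 and 6.33 against 5.29, 4.10 and 4.11 FPKM, and Six4, at 10.9, 10.6 and 9.77 against 8.47, 7.80 and 7.64 FPKM. The calls for Pax3 and Six4 ended without NC library 1 or 2 or si-NC library 3 (adjusted p = 0.0539 to 0.0681). Tead4 was called higher, at 7.14, 6.81 and 6.93 against 8.52, 8.11 and 8.38 FPKM, but not without si-NC library 3 or any single NC library (adjusted p = 0.0843 to 0.107), while Mef2c and Mef2d were not called (Mef2c lower without si-NC library 1, adjusted p = 0.0241, and Mef2d lower without si-NC library 2, 0.0159). Of the cardiac transcription factors, Gata6 was called lower (12.7, 12.0 and 11.6 against 10.3, 7.74 and 8.81 FPKM), a call that ended without si-NC library 3 or any single NC library (adjusted p = 0.0712 to 0.0978). Hand2 was not called at 0, 0.124 and 0 against 1.007, 16.5 and 2.65 FPKM. It was called higher in 7 of the alternatives (adjusted p = 0.0117 to 0.0483). Among them were a pseudocount of 0.1 (0.0136), a fit of all 12 libraries (0.0151) and leaving out si-NC library 1 (0.0117). Gata4 and Nkx2-5 were not tested and reached 1.25 and 1.97 FPKM at most, in si-NC library 2.

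Matrix genes that were nearly silent in NC rose beside the contractile ones. Col1a1, the main fibrillar collagen chain, stood at 1.19, 2.36 and 1.84 FPKM in NC and 42.4, 661 and 395 FPKM in si-NC (6.35, SE 0.958, adjusted p = 0.00608). Col3a1, its fibrillar partner, stood at 0.810, 1.28 and 1.03 FPKM against 27.9, 475 and 261 FPKM. Serpinh1, the chaperone that folds collagen, stood at 0.615, 0.991 and 0.848 FPKM against 22.5, 331 and 214 FPKM. Being under 1 FPKM in each NC library, it entered the test through si-NC alone. Of 17 tested collagen chains, Col1a1 and Col3a1 were called higher and 4 lower, with a median difference of -0.02. These shares, 11.8% and 23.5%, lay near the 10.6% and 23.8% of all genes. Those lower were Col5a3 (37.7, 40.9 and 36.3 against 24.8, 21.1 and 23.1 FPKM), Col11a2 (2.85, 2.92 and 2.78 against 1.24, 0.976 and 1.02 FPKM), Col12a1 (104, 107 and 94.5 against 67.6, 73.2 and 71.0 FPKM) and Col16a1 (28.7, 31.9 and 28.4 against 22.2, 20.9 and 21.7 FPKM). Without si-NC library 1 7 chains were called higher and 6 lower. Lists were matched by symbol, so a chain under a provisional name was not counted. A row so named, NEWGENE_621351 (ENSRNOG00000011292), was chosen after its values were seen. It stood at 0.0622, 0.241 and 0.517 FPKM in NC and 27.9, 166 and 283 FPKM in si-NC. Its difference was 6.46 (adjusted p = 0.00352 with limma), and it entered the test through si-NC alone. The name does not say which gene it is.

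Other genes with the same order of libraries came from varied roles. Ca3, a muscle carbonic anhydrase, stood at 0.329, 1.51 and 1.12 FPKM in NC and 51.4, 741 and 498 FPKM in si-NC. Ankrd1, a nuclear protein induced in stretched muscle, stood at 1.71, 2.37 and 2.24 against 28.2, 364 and 250.2 FPKM. Hspb1, a small heat shock protein, stood at 0.119, 0.136 and 0.0940 against 8.95, 124 and 89.9 FPKM. Fhl1, a LIM protein of muscle, stood at 0.341, 0.798 and 0.452 against 11.3, 115 and 107 FPKM. The secreted protein Ccdc80 stood at 0.0343, 0.244 and 0.130 against 6.96, 150.1 and 68.4 FPKM. Thy1, a surface marker of fibroblasts, stood at 0.0786, 0.210 and 0.155 against 3.86, 65.3 and 40.1 FPKM, and Igf2, an imprinted growth factor, at 0.0123, 0.120 and 0.0659 against 2.47, 47.0 and 20.1 FPKM. The calls for Thy1 and Igf2 ended without si-NC library 3 or any single NC library (adjusted p = 0.0567 to 0.0735). Hspb1, Fhl1, Ccdc80, Thy1 and Igf2 stood under 1 FPKM in each NC library. They entered the test through si-NC alone, so their calls follow in part from the filter. The row named Mir675, which the naming rule left out as a small RNA and which was chosen after its values were seen, stood at 0.414, 7.12 and 2.46 against 124, 3551 and 1108 FPKM. It lies within the H19 transcript, from which such fragments cannot be told apart.

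The share of RNA in si-NC library 1 split the genes near absent in NC. In all, 151 genes had an NC mean under 1 FPKM and an si-NC mean of at least 5 FPKM, a set picked by these values and given with no test. In 143 of them si-NC library 1 held less than 0.2 times the mean of si-NC libraries 2 and 3, in 1 gene 0.2 to 0.5 times, and in 7 genes at least 0.5 times. The median ratio over the 151 was 0.0945 (interquartile range 0.0803 to 0.113), against 1.07 over all tested genes. Library 2 was the highest in 139 of the 151, and the median ratio of library 3 to library 2 was 0.690. The gap between 0.2 and 0.5 held the single gene Plaat3, a phospholipase. The 7 genes on the other side of it were Csf2, Faim, Sccpdh, Pla2g2a, Wfdc21, Lcn2 and Tma7. Over the 143 genes the median level was 0.129, 0.187 and 0.196 FPKM in the NC libraries and 1.30, 15.7 and 10.4 FPKM in the si-NC libraries.

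**Figure D2:**
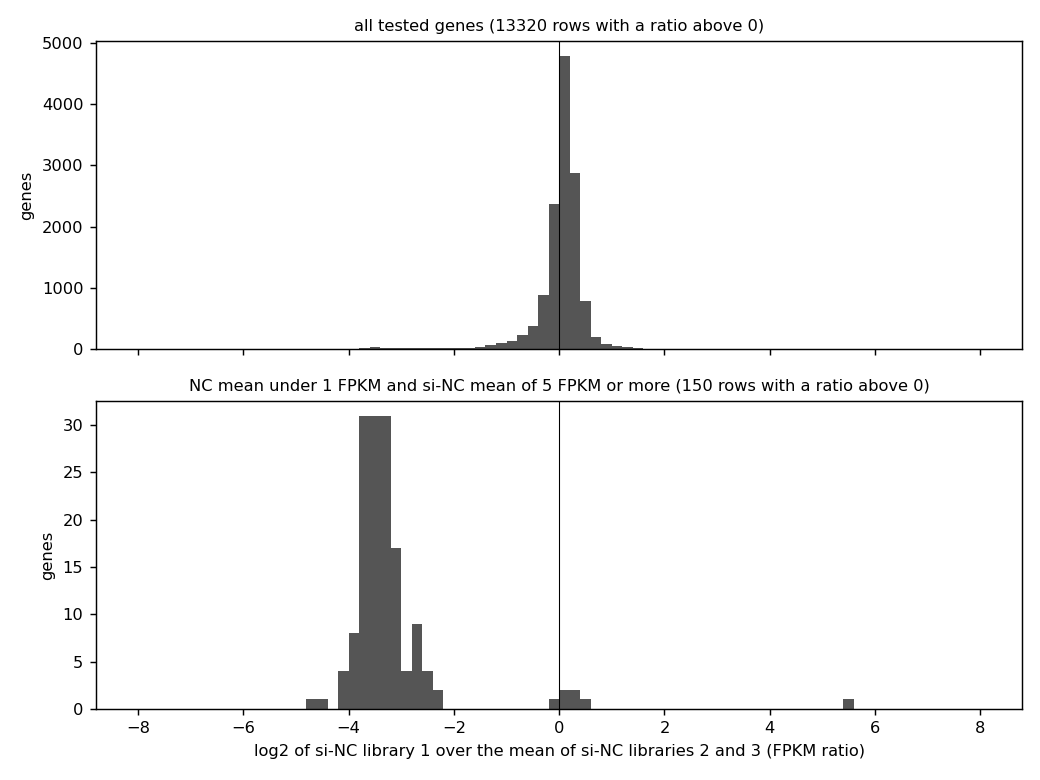
Number of genes (vertical axes) by the log2 ratio of FPKM in si-NC library 1 to the mean of si-NC libraries 2 and 3 (horizontal axis), for all tested genes (top) and for genes with an NC mean under 1 FPKM and an si-NC mean of at least 5 FPKM (bottom), leaving out ratios of 0. The bottom panel falls into a large group far below 0, of median ratio 0.0945 over all 151 genes, and a few genes near or above 0.

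Among the developmental Hox genes that passed 1 FPKM in any library, those of the HoxD cluster and Hoxb2 showed this pattern. Hoxb2 stood at 0.130, 0.0747 and 0.193 FPKM in NC and 0.203, 2.54 and 1.60 FPKM in si-NC. Hoxd8 was listed at 0 in each NC library and stood at 0.0869, 3.92 and 3.29 FPKM in si-NC. Hoxd13 was likewise listed at 0 in NC and stood at 0.233, 3.99 and 2.31 FPKM, and Hoxd9 was at 0, 0.0222 and 0 against 0.361, 5.48 and 3.90 FPKM. The cell cycle inhibitor Cdkn2a, listed at 0 in each NC library, stood at 0.434, 7.35 and 3.73 FPKM in si-NC. These 5 genes did not reach 1 FPKM in 3 libraries and were not tested. Other genes of the HoxA and HoxB clusters were expressed in both groups, with Hoxa2 lower (6.32, 7.18 and 6.44 against 4.33, 5.41 and 4.55 FPKM), Hoxb3 lower (9.31, 8.54 and 9.42 against 6.79, 8.13 and 6.64 FPKM), Hoxb6 higher (10.7, 11.3 and 12.4 against 14.6, 14.6 and 12.7 FPKM) and Hoxb7 higher (1.16, 1.33 and 1.16 against 1.92, 3.48 and 2.71 FPKM) of 9 tested. Each of these 4 calls ended without 1 library or under another setting (adjusted p = 0.0502 to 0.294). Of the 9 tested Hox genes 22.2% were called higher and 22.2% lower, against 10.6% and 23.8% of all genes. The Y-linked genes Eif2s3y (50.9, 54.6 and 55.9 against 47.8, 26.3 and 37.3 FPKM) and Kdm5d (12.1, 13.1 and 12.4 against 11.2, 7.22 and 9.30 FPKM) were lowest in si-NC library 2 and were not called. Both were called lower without si-NC library 1 (adjusted p = 0.00780 and 0.00763), in a fit of all 12 libraries (0.0215 and 0.0240) and when each group had a variance of its own (0.0357 and 0.0344), and Kdm5d also with a filter of 5 FPKM (0.0470).

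Other increases were alike in all 3 si-NC libraries, several chemokines among them. Ccl2 (ENSRNOG00000007159), which attracts monocytes, stood at 71.0, 64.6 and 75.2 FPKM in NC and at 1788, 1544 and 1541 FPKM in si-NC (4.51, SE 0.0862, adjusted p = 1.06e-05 with limma). Ccl7, a related monocyte chemokine, stood at 6.38, 6.66 and 7.38 against 388, 257 and 346 FPKM (5.39, SE 0.149, adjusted p = 1.64e-05). Cxcl1, which attracts neutrophils, stood at 32.4, 31.1 and 32.4 against 463, 368 and 389.9 FPKM (3.62, SE 0.0877, adjusted p = 1.06e-05). Lcn2, an acute phase protein that binds bacterial iron carriers, stood at 0.430, 0.135 and 0.279 against 74.4, 48.2 and 53.5 FPKM (5.52, SE 0.173, adjusted p = 2.93e-05). Csf2, a myeloid growth factor, stood at 0.158, 0.271 and 0.281 against 9.58, 10.1 and 11.1 FPKM, a call that ended in a fit of all 12 libraries (adjusted p = 0.0580). In 4 of these 5 genes si-NC library 1 was the highest of its group, the reverse of its place for the contractile genes. Ass1, which makes argininosuccinate, was chosen after its values were seen and stood at 2.38, 2.78 and 2.84 against 119.6, 88.1 and 101 FPKM. Lcn2 and Csf2 stood under 1 FPKM in each NC library and entered the test through si-NC alone. Their calls follow in part from the filter.

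Of the 29 tested genes of inflammation and NF-kB, 15 were called higher and 4 lower. These shares, 51.7% and 13.8%, stand against 10.6% and 23.8% of all genes. The median difference was 0.37, against -0.08 over all genes. Among the higher calls, Lcn2, Csf2, Cxcl2 and Cxcl12 stood under 1 FPKM in each NC library. They entered the test through si-NC alone, so the share called higher follows in part from the filter. Cxcl12 stood at 2.47, 38.0 and 26.2 FPKM in si-NC, lowest in library 1. Leaving out single libraries gave 12 to 16 higher and 2 to 8 lower, and a fit of all 12 libraries 9 and 2. Members chosen after their values were seen were the T cell chemokine Ccl5 (6.96, 4.32 and 5.91 against 192, 118 and 144 FPKM), the NF-kB cofactor Nfkbiz (2.82, 2.70 and 2.61 against 23.4, 16.4 and 20.3 FPKM) and complement C3 (0.912, 0.984 and 1.14 against 9.90, 7.25 and 8.36 FPKM). Among inhibitors and subunits of the pathway, Tnfaip3, a feedback inhibitor, was called lower (43.3, 41.5 and 41.2 against 29.7, 22.5 and 26.5 FPKM), as were the subunits Relb (45.1, 45.3 and 47.2 against 35.7, 25.8 and 29.2 FPKM) and Rela, and the adhesion molecule Icam1 (79.7, 78.9 and 78.4 against 50.7, 65.4 and 63.7 FPKM). The calls for Rela and Icam1 ended after scaling by median ratios and without si-NC library 3 or any single NC library (adjusted p = 0.0517 to 0.206), and those for Icam1 and Tnfaip3 in a fit of all 12 libraries (0.254 and 0.235). Nfkb1, Nfkb2 and Nfkbia were not called. The inhibitor Nfkbia was called higher without si-NC library 2 (adjusted p = 0.0388) and with either scaling (0.0314 to one median, 0.0145 by median ratios), and Nfkb2 lower without si-NC library 1 (0.0243). Of 3 tested macrophage and microglia markers, 2 were called higher and 1 lower (66.7% and 33.3%, against 10.6% and 23.8% of all genes). Cd14 was called higher (10.999, 11.015 and 10.6 against 14.9, 14.1 and 14.1 FPKM). Cd68 was higher too (1.37, 1.45 and 1.30 against 3.87, 3.03 and 3.85 FPKM). Lyz2 was called lower (3.04, 2.35 and 3.23 against 1.18, 1.23 and 1.66 FPKM), but not without NC library 1 (adjusted p = 0.0530 with limma). The summed level of the 5 markers in the table was 15.2 to 15.7 FPKM in NC and 18.9 to 20.2 FPKM in si-NC. Their part in the chemokine result was not tested.

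Upstream sequences of 3 of these genes show where the letters GGGNNNNNCC, a loose form of the kappaB motif that NF-kB can bind, occur. They are the 250 bases before the RefSeq gene start on build GRCr8, 5′ to 3′ on the gene's strand, with matches on either strand in capitals and overlapping matches run together.
Cxcl1 (chr14:17479322-17479571, minus strand): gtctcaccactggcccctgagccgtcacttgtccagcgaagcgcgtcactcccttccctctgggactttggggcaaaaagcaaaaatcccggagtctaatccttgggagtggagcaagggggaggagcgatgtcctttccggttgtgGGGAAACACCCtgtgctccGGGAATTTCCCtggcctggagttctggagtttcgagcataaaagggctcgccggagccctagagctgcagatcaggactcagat
Nfkbiz (chr11:58251471-58251720, plus strand): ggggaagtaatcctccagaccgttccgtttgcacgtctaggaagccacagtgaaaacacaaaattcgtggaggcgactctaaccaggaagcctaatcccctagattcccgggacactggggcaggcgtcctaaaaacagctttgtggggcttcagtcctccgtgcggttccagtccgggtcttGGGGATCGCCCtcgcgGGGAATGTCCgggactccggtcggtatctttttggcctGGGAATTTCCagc
Ccl7 (chr10:67513845-67514094, plus strand): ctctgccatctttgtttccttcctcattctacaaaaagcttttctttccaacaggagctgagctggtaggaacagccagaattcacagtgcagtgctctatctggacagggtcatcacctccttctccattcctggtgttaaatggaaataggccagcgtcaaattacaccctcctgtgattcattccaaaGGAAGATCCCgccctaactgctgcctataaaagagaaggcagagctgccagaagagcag
Cxcl1 held 4 matches counting both strands, Nfkbiz 4 and Ccl7 1. Such a match was found in 11 of the 14 called members of the list that had an upstream sequence, and in 43.5% of the same window in 27457 RefSeq genes. The 14 mixed directions, and the 3 shown were picked from genes called higher. Of those called lower, Tnfaip3 held 8 matches, Icam1 1 and Rela 0. Cxcl12 and Il1a, called higher, held 0. A match is a description of letters and not a bound site.

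Of 38 tested interferon response genes, 17 were called higher and 2 lower (44.7% and 5.26%, against 10.6% and 23.8% of all genes). Mx1, an antiviral GTPase, stood at 4.53, 4.34 and 4.90 FPKM in NC and 20.1, 16.7 and 17.0 FPKM in si-NC (1.76, SE 0.0872, adjusted p = 0.000296). Gbp2, a guanylate-binding protein, stood at 33.1, 33.5 and 36.9 against 92.4, 72.3 and 78.0 FPKM, and B2m, the light chain of MHC class I, at 350.4, 350.2 and 381 against 659, 791 and 659 FPKM. Isg20, an RNA exonuclease, was lower (46.7, 46.7 and 49.7 against 27.4, 22.5 and 21.5 FPKM). Without NC library 1 or 2 8 and 9 were called higher, without si-NC library 2 25, and after scaling to one median or by median ratios 22 and 25. Of 19 tested genes of RNA interference and double-stranded RNA sensing, Irf3 alone was called higher (21.4, 23.3 and 21.4 against 23.7, 27.6 and 27.6 FPKM) and Xpo5, the exporter of microRNA precursors, alone lower (32.3, 33.5 and 33.2 against 26.9, 24.6 and 24.5 FPKM). The call of Irf3 ended in 10 of the alternatives (adjusted p up to 0.149), and 4 genes of this list were called higher after scaling by median ratios. In the main fit 5.26% of the list was called in each direction, against 10.6% higher and 23.8% lower of all genes.

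Of 15 TGF-beta targets tested, 8 were called higher and none lower (53.3% higher, against 10.6% of all genes). Ccn2, a matrix-associated growth factor modulator, stood at 145, 148 and 139 FPKM in NC and 372, 486 and 479 FPKM in si-NC (1.61, SE 0.108, adjusted p = 0.000822). Inhba, the activin A subunit, stood at 8.01, 8.71 and 7.52 against 20.7, 23.0 and 24.6 FPKM, and Tgfb1, the ligand, at 79.0, 76.6 and 77.3 against 129, 129.8 and 116 FPKM. Over the 15 targets the median log2 difference from the NC mean was 0.246, 0.827 and 0.558 in si-NC libraries 1, 2 and 3. Library 1 was thus the lowest for the list. Of 29 other matrix and adhesion genes, 14 were called higher and 2 lower (48.3% and 6.9%, against 10.6% and 23.8% of all genes). Only 2 or 3 were called higher without si-NC library 3 or any single NC library. Fn1, fibronectin, stood at 479.8, 471 and 450.5 against 734, 1167 and 919 FPKM, and Mmp9, a matrix protease, at 1.81, 1.99 and 2.06 against 11.1, 7.39 and 8.67 FPKM. The 2 lower were Eln, elastin (3.73, 4.16 and 4.75 against 2.28, 1.58 and 2.35 FPKM), and the laminin chain Lama4 (43.4, 44.0 and 42.6 against 33.9, 26.6 and 30.3 FPKM).

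**Figure D3:**
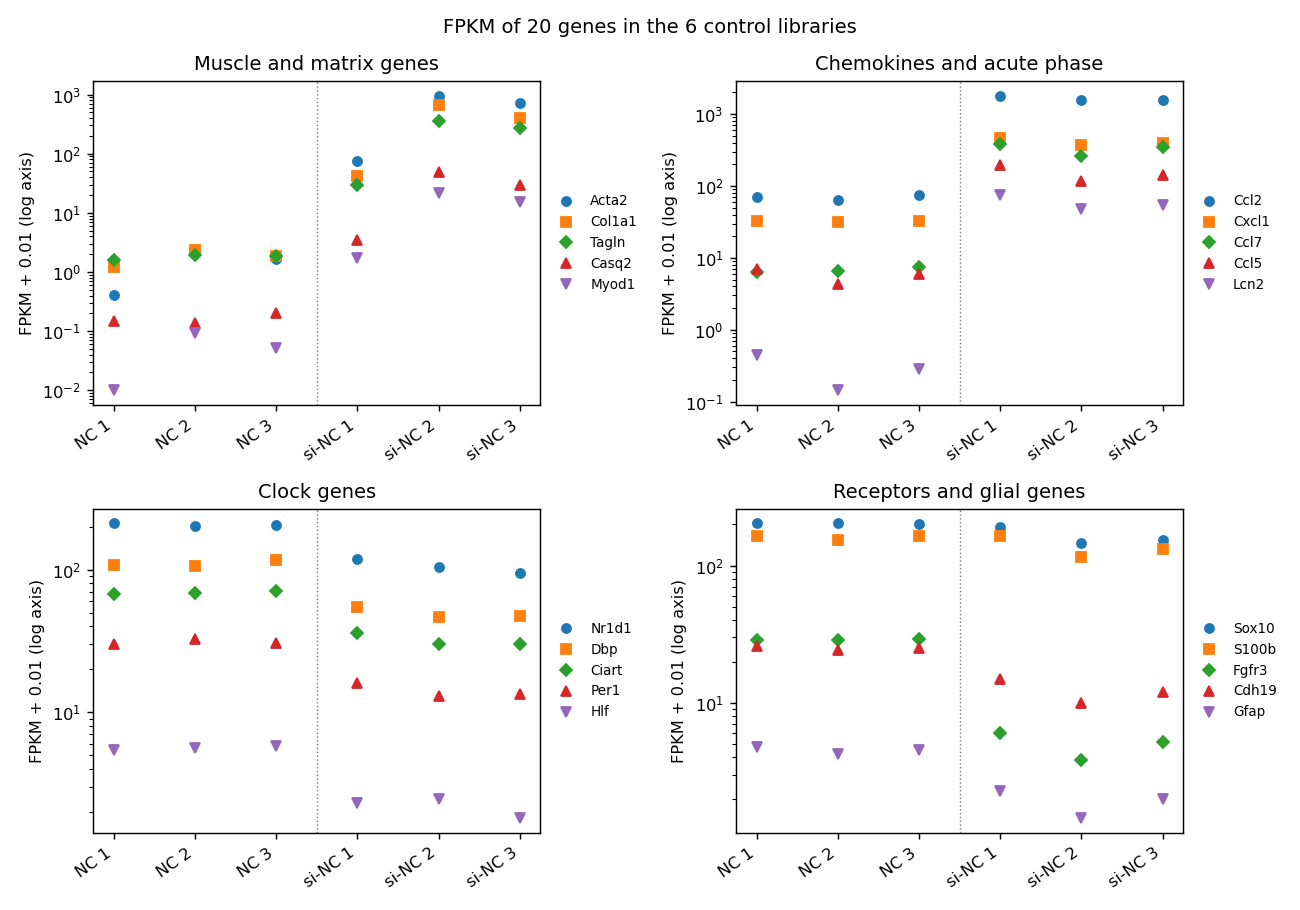
FPKM plus 0.01 on log axes (vertical) in each of the 6 libraries (horizontal) for 20 genes in 4 groups, 1 point per library, with a dotted line between NC and si-NC. The contractile and matrix genes shown were lower in si-NC library 1 than in libraries 2 and 3 (Acta2 at 73.8, 954 and 722 FPKM). The chemokines shown were not lower in library 1 (Ccl2 at 1788, 1544 and 1541 FPKM). Cxcl12, a chemokine that is not drawn, was lower there (2.47, 38.0 and 26.2 FPKM). The 5 clock genes shown were lower in each si-NC library than in any NC library.

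Among lists with at least 5 tested members, the circadian clock had the largest share of called genes. Of its 18 tested genes 17 were called lower and none higher (94.4% against 23.8% of all genes), with a median difference of -0.75. Leaving out single libraries gave 11 to 18, a fit of all 12 libraries 13, and scaling to one median or by median ratios left 17. Dbp (ENSRNOG00000021027), a clock output transcription factor, stood at 108, 107 and 116 FPKM in NC and 54.8, 46.5 and 47.4 FPKM in si-NC (-1.14, SE 0.0743, adjusted p = 0.000757). Ciart, a repressor of the clock, stood at 67.6, 68.3 and 71.1 against 35.8, 29.9 and 30.2 FPKM, Per1, of the negative limb, at 29.9, 32.3 and 30.4 against 15.9, 12.9 and 13.5 FPKM, and Cry2, its partner, at 30.8, 32.1 and 30.6 against 19.05, 16.5 and 16.9 FPKM. The positive limb was lower too, with Arntl (Bmal1) at 19.4, 19.2 and 20.7 against 14.5, 13.4 and 14.1 FPKM and Clock at 21.2, 21.3 and 19.9 against 18.0, 14.9 and 15.7 FPKM, both chosen after their values were seen. In those 6 genes the groups did not overlap. The call of Clock ended without si-NC library 3 or any single NC library (adjusted p = 0.0529 to 0.0787), and that of Arntl in a fit of all 12 libraries (0.0659). Npas2, a partner of Arntl, was the gene not called, at 7.35, 6.95 and 6.87 against 7.27, 5.69 and 5.50 FPKM. No source used here gives the time of harvest.

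Upstream sequences of 3 clock genes are shown in the same way with the canonical E-box CACGTG, the letters that Clock and Arntl are known to bind, in capitals.
Ciart (chr2:186112247-186112496, minus strand): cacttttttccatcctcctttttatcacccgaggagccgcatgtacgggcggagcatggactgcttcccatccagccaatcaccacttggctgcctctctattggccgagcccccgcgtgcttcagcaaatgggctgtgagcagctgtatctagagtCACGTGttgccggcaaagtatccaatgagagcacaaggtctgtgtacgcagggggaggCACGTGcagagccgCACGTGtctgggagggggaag
Tef (chr7:115206577-115206826, plus strand): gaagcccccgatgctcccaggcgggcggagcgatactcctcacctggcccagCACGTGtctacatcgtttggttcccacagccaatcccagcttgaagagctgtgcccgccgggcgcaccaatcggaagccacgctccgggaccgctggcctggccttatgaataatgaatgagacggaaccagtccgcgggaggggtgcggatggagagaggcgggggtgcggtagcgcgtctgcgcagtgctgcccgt
Bhlhe40 (chr4:143174200-143174449, plus strand): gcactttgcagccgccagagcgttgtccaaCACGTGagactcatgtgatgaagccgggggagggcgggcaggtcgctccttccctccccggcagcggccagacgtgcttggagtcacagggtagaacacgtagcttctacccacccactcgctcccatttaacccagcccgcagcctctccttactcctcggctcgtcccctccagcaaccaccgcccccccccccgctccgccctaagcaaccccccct
Ciart held 3 matches in this window, and Tef and Bhlhe40 1 each. Tef stood at 53.9, 54.4 and 56.5 against 33.5, 24.0 and 30.8 FPKM and Bhlhe40 at 173, 171 and 176 against 152, 118 and 126 FPKM, whose call ended in a fit of all 12 libraries (adjusted p = 0.350) and without si-NC library 3 or any single NC library. The E-box letters were found in 4 of the 14 called clock genes with an upstream sequence and in 5.79% of the same window in 27457 RefSeq genes. Dbp and Per1 held none in these 250 bases.

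The 15 largest named decreases had varied roles. Fgfr3 (ENSRNOG00000016818), a fibroblast growth factor receptor, stood at 28.9, 28.8 and 29.1 FPKM in NC and 5.98, 3.84 and 5.16 FPKM in si-NC (-2.34, SE 0.13, adjusted p = 0.00038 with limma). Kcnn1, a calcium-activated potassium channel, stood at 22.4, 21.8 and 21.7 against 7.77, 6.10 and 6.55 FPKM, and Rgr, an opsin, at 14.1, 13.4 and 12.1 against 3.77, 3.17 and 3.67 FPKM. Txnip, which binds thioredoxin and limits glucose uptake, stood at 83.3, 88.3 and 87.9 against 38.4, 33.0 and 33.6 FPKM, and Arrdc4, a related arrestin, at 13.9, 14.3 and 13.3 against 6.48, 4.02 and 5.14 FPKM. Alk, a receptor tyrosine kinase of the nervous system, stood at 10.3, 10.8 and 10.4 against 4.99, 3.099 and 3.81 FPKM. No NC value overlapped an si-NC value in any of these 6 genes.

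The rule for named genes took 9 further decreases. Olfml2a, Islr, Faim2, Fez1, Camkk1, Gpd1, Diras2 and Smim5 fell by 1.24 (Diras2) to 1.69 (Olfml2a) on the log2(FPKM + 1) scale. Fez1, which links cargo to kinesin in axons, stood at 15.7, 15.2 and 15.7 against 6.39, 4.33 and 5.17 FPKM, and Camkk1, a calmodulin-dependent kinase, at 15.6, 16.8 and 16.3 against 6.81, 5.38 and 6.04 FPKM. Gpd1, which makes glycerol 3-phosphate, stood at 34.8, 34.5 and 34.5 against 16.6, 11.5 and 13.8 FPKM. The last, Hnrnpab, stood at 8.53, 9.09 and 30.7 against 2.98, 2.62 and 3.55 FPKM, so NC library 3 held most of the difference. Its call ended in a fit of all 12 libraries (adjusted p = 0.0964), when each group had a variance of its own (0.107), and without si-NC library 2 (0.0522) or 3 (0.0686).

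Of 11 tested Schwann and neural crest markers, 6 were called lower and none higher (54.5% lower, against 23.8% of all genes). Without si-NC library 1 9 were called lower. With no filter on low values 5 were called lower and 1 higher. Cdh19, a cadherin of Schwann cell precursors, stood at 26.1, 24.4 and 25.2 against 14.98, 9.90 and 12.0 FPKM (-0.999, SE 0.134, adjusted p = 0.00442). Mitf, a melanocyte factor, stood at 8.64, 8.58 and 8.15 against 4.77, 3.79 and 4.14 FPKM, Tfap2a, a neural crest factor, at 30.0, 29.4 and 28.6 against 20.5, 19.1 and 17.5 FPKM, and L1cam, an adhesion molecule, at 6.44, 6.93 and 6.05 against 4.59, 3.38 and 3.99 FPKM. The call of L1cam ended without NC library 2 (adjusted p = 0.0513). The summed level of the list was 635 to 644 FPKM in NC and 631, 480.0 and 524 FPKM in si-NC libraries 1, 2 and 3, so library 1 lay close to NC in the sum. The same 2 si-NC libraries held the contractile RNA, and the part of the one in the other was not tested.

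Of 6 neuron markers tested, 4 were called lower and none higher (66.7% lower, against 23.8% of all genes). Scg2, a granin of secretory granules, stood at 84.1, 79.3 and 86.5 against 49.1, 36.9 and 41.2 FPKM, and Vgf, a neuropeptide precursor, at 11.4, 11.6 and 11.3 against 7.54, 7.71 and 6.62 FPKM, a call that ended in a fit of all 12 libraries (adjusted p = 0.238). Map2 and Snap25 were the other 2, and their calls ended without si-NC library 3 or any single NC library (adjusted p = 0.0577 to 0.0765). Of 6 oligodendrocyte and progenitor markers, Nkx2-2 (19.9, 20.4 and 21.0 against 14.4, 12.7 and 11.6 FPKM) and Olig2 (2.59, 2.68 and 2.65 against 1.84, 1.32 and 1.58 FPKM) were called lower, the first not in a fit of all 12 libraries (adjusted p = 0.0545) and the second not without si-NC library 3 or any single NC library (0.0568 to 0.0626). These 2 made 33.3% of the list, against 23.8% of all genes.

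Astrocyte markers split. Of 6 tested, Gfap was called lower (4.74, 4.24 and 4.52 against 2.28, 1.44 and 1.97 FPKM) and so was Aldoc (22.1, 20.8 and 24.0 against 16.6, 9.32 and 11.9 FPKM), a glycolytic enzyme of astrocytes. Glul, glutamine synthetase, was called higher (13.0, 13.8 and 12.8 against 15.6, 16.9 and 15.3 FPKM), as was the gap junction protein Gja1 (9.82, 10.1 and 10.2 against 12.5, 34.9 and 28.4 FPKM). The calls for Aldoc, Glul and Gja1 each ended when single libraries were left out (adjusted p = 0.0517 to 0.135), and that of Gfap did not in any alternative tried. S100b and Nes were not called. Slc1a3, a glutamate transporter, stood at or under 0.0200 FPKM in NC and at 0.354, 4.82 and 3.42 FPKM in si-NC and was not tested. Among fibroblast and mesenchymal markers S100a4 fell (1769.7, 1702 and 1784 against 1251, 1019 and 1126 FPKM), as did Fbln1 (23.4, 23.2 and 23.5 against 18.1, 16.0 and 16.3 FPKM). With Twist1, whose call ended in 11 of the alternatives, that made 3 of 11 lower, and Col1a1, Thy1 and Postn made 3 higher. Each direction held 27.3% of the list, against 23.8% lower and 10.6% higher of all genes. The calls for Thy1 and Postn ended without si-NC library 3 or any single NC library (adjusted p = 0.0567 to 0.0866). Of 5 endothelial markers, Eng and Flt1 were called higher and Tek lower (40% and 20%, against 10.6% and 23.8% of all genes). The calls for Eng and Tek ended without si-NC library 3 or any single NC library (adjusted p = 0.0537 to 0.139). Thy1 and Eng stood under 1 FPKM in each NC library and entered the test through si-NC alone. Of metallothioneins 2 were tested and none called, and 1 epithelial marker was tested and not called.

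**Figure D4:**
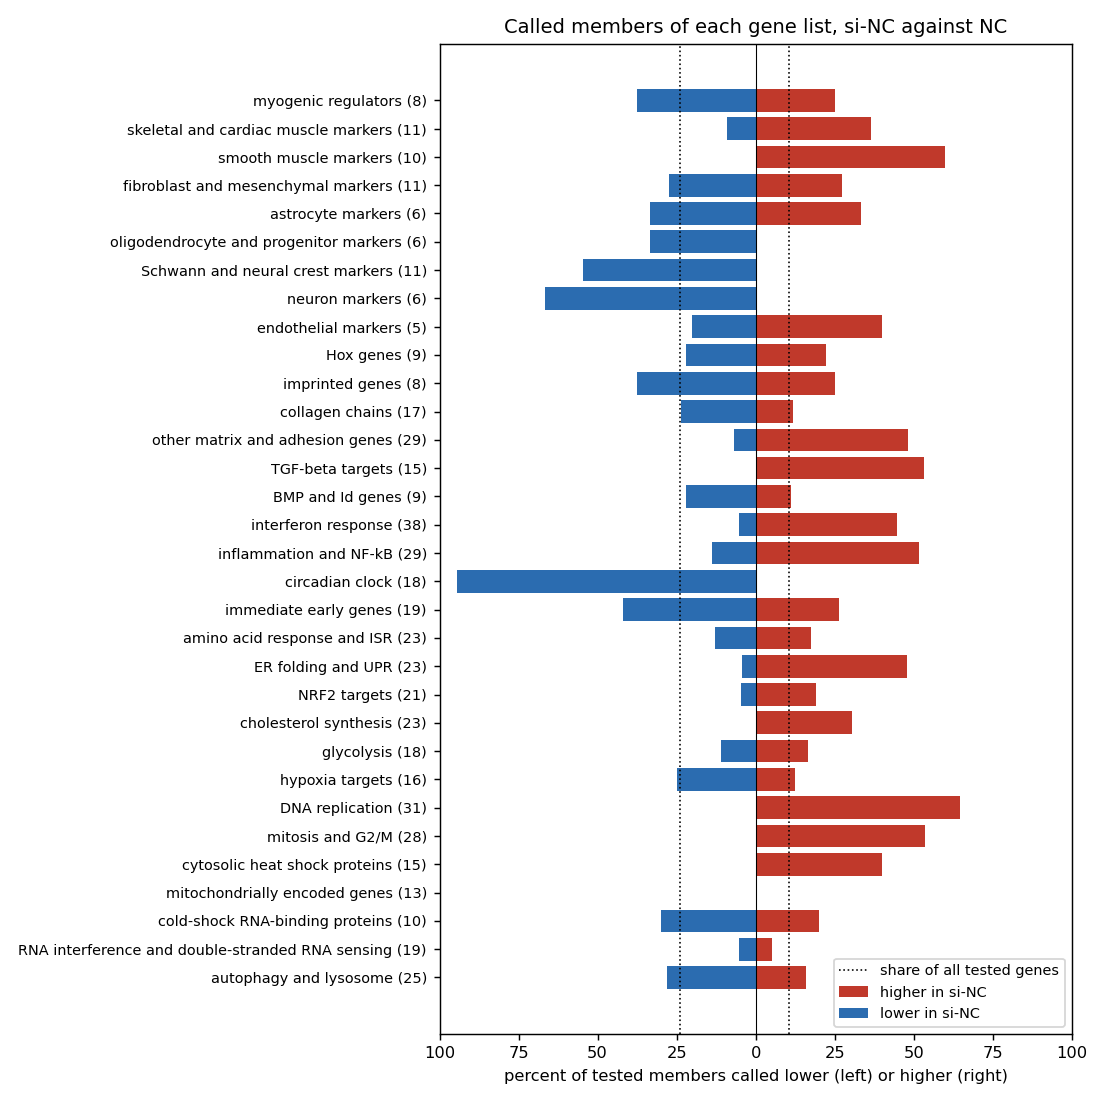
Percent of the tested members of each list called higher (right, red) or lower (left, blue) in si-NC with limma, for the lists reported here that have at least 5 tested members (their number in brackets). Dotted lines mark the shares of all tested genes, 10.6% higher and 23.8% lower. The clock list reaches 94.4% on the left and DNA replication 64.5% on the right.

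Of 31 tested replication genes 20 were called higher and none lower (64.5%), and of 28 mitosis and G2/M genes 15 and none (53.6%). Among all genes 10.6% were called higher and 23.8% lower. Mcm7 of the replicative helicase stood at 38.4, 39.7 and 40.3 FPKM in NC and 64.8, 55.0 and 58.7 FPKM in si-NC (0.58, SE 0.0669, adjusted p = 0.00314), Mcm5 at 38.3, 37.9 and 37.4 against 57.9, 52.8 and 56.2 FPKM, and Mcm2 at 37.6, 38.4 and 37.5 against 55.3, 51.4 and 51.6 FPKM. Single libraries left out gave 13 to 26 and 4 to 19 higher. A fit of all 12 libraries gave 17 replication genes and no mitosis gene. The mitotic kinase Plk1 stood at 44.9, 45.2 and 45.5 against 60.1, 61.0 and 57.3 FPKM and the cyclin Ccna2 at 39.7, 40.4 and 36.8 against 52.2, 50.4 and 48.8 FPKM. The calls for Plk1 (adjusted p = 0.416), Ccna2 (0.288), Cenpa (0.158), Ube2c (0.311) and the ribonucleotide reductase subunit Rrm1 (0.0524) ended in a fit of all 12 libraries.

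Some chaperones were called higher, 11 of 23 in the ER list and 6 of 15 in the cytosolic list (47.8% and 40%, against 10.6% of all genes). P4hb, a protein disulfide isomerase, stood at 421, 421 and 432 against 708, 624 and 668 FPKM, the lectin chaperone Calr at 354, 354 and 369.9 against 465, 551 and 512 FPKM, and Hsp90b1 at 164, 161 and 170.0 against 202, 237 and 224 FPKM. The stress sensor Ern1 was lower (12.1, 12.7 and 12.1 against 9.65, 7.95 and 8.43 FPKM). Of 23 tested genes of ER folding and the unfolded protein response 11 were called higher and 1 lower (47.8%), 3 to 13 higher when single libraries were left out and 16 after scaling by median ratios. The call of P4hb ended in a fit of all 12 libraries (adjusted p = 0.0645). Of 15 genes on the cytosolic heat shock list 6 were called higher, but 2 without si-NC library 3 or any single NC library. Among the 6 were Hspa8 (529, 506 and 522 against 684, 731 and 694 FPKM), Hspd1, Hsph1 and Hspb1. Hspd1 encodes a mitochondrial chaperone, so the list is not wholly cytosolic. Hspa8 was not called in a fit of all 12 libraries (adjusted p = 0.0553). Of 23 cholesterol synthesis genes 7 were called higher (30.4%, against 10.6% of all genes) and none lower, among them Sqle, Ebp and Msmo1. Without si-NC library 1 18 were, and without NC library 2 2, with Ebp (adjusted p = 0.0538) and Msmo1 (0.0599) among the calls lost.

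Stress and growth regulators moved in both directions. Of 19 immediate early genes 5 were called higher and 8 lower (26.3% and 42.1%, against 10.6% and 23.8% of all genes). Ier3 stood at 17.5, 14.96 and 16.9 against 54.3, 68.9 and 66.2 FPKM (1.87, SE 0.104, adjusted p = 0.00038), Fos at 9.48, 9.03 and 9.22 against 20.5, 18.1 and 18.2 FPKM and Fosl2 at 40.8, 39.6 and 37.7 against 60.0, 67.2 and 60.3 FPKM, while Jund was lower (101, 100.4 and 106 against 76.5, 86.9 and 78.7 FPKM; not after scaling by median ratios, adjusted p = 0.0535). Gadd45g, a growth arrest gene, stood at 74.1, 72.6 and 80.3 against 36.9, 39.0 and 39.7 FPKM and was called lower. Gadd45a, a related gene, was lower, but not in a fit of all 12 libraries (adjusted p = 0.206). Of 9 BMP and Id genes 1 was called higher (Bmp2) and 2 lower (Id1 and Id2). These shares, 11.1% and 22.2%, lay near the 10.6% and 23.8% of all genes. The calls for Bmp2 and Id1 ended when single libraries were left out (adjusted p = 0.0556 to 0.109). Of 8 imprinted genes Igf2 and Grb10 were called higher and 3 lower (25% and 37.5%, against 10.6% and 23.8% of all genes). Igf2 and Grb10 stood under 1 FPKM in each NC library and entered the test through si-NC alone. Id2, a target of BMP signalling, fell (82.5, 76.8 and 83.1 against 42.0, 46.2 and 47.4 FPKM), as did the imprinted genes Igf2r (75.2, 77.2 and 72.1 against 44.6, 39.4 and 42.0 FPKM), Plagl1 (20.8, 21.5 and 19.6 against 12.6, 10.6 and 9.88 FPKM) and Zrsr1.

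Lists of low-oxygen and nutrient stress, the conditions that OGD/R imposes on every group, are given here with NRF2 targets and autophagy genes. From hypoxia targets to autophagy genes, 12.5% to 19% were called higher and 4.76% to 28% lower, against 10.6% and 23.8% of all genes. The share called lower was smallest among NRF2 targets (4.76%) and glycolysis genes (11.1%). Of 16 hypoxia targets 2 were called higher and 4 lower, with Hif1a at 70.3, 69.1 and 68.9 against 58.8, 53.9 and 57.4 FPKM. Of 18 glycolysis genes 3 were higher and 2 lower, with the regulator Pfkfb3 at 29.5, 29.8 and 28.9 against 20.8, 16.9 and 19.2 FPKM and Hk2, hexokinase, at 13.6, 14.8 and 15.1 against 22.2, 20.8 and 20.4 FPKM (not in a fit of all 12 libraries, adjusted p = 0.21). Of 23 genes of the amino acid response 4 were higher and 3 lower, with Ddit3 (CHOP) at 194, 194 and 208 against 127, 100.1 and 112 FPKM (not in a fit of all 12 libraries, adjusted p = 0.173) and Shmt2, of one-carbon metabolism, at 35.8, 34.0 and 36.7 against 45.9, 60.7 and 54.5 FPKM. Of 21 NRF2 targets 4 were higher and 1 lower, with Gstp1 at 206, 217 and 222 against 279.9, 286 and 316 FPKM. Of 25 autophagy and lysosome genes 4 were higher and 7 lower, with the regulator Tfeb at 15.5, 16.3 and 16.6 against 11.4, 10.8 and 9.77 FPKM. None of the 13 mitochondrially encoded genes was called, and their summed level was 26959 to 28215 FPKM in NC and 28823, 46898 and 30562 FPKM in si-NC, highest in library 2.

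The other pair of groups, si-CIRBP against CIRBP, shares no library with these 6 and was fitted on its own 6. Cirbp was at 26.5, 28.6 and 27.7 FPKM under the label si-CIRBP, against 29.0, 24.2 and 27.0 FPKM in si-NC, so their label is not borne out by a lower Cirbp level. Of 13373 genes tested, 2727 (20.4%) were higher and 2858 (21.4%) lower in the libraries labelled si-CIRBP than in CIRBP. Called higher in both pairs were 671 genes, which are 47.3% of the si-NC list and 24.6% of the other, and lower in both 1252 genes, 39.5% and 43.8%. In opposite directions went 61 genes that were higher and 146 that were lower in si-NC. Of the 143 genes that were under 1 FPKM in NC and low in si-NC library 1, 137 had a CIRBP mean under 1 FPKM and 134 a mean of at least 5 FPKM in the libraries labelled si-CIRBP. Acta2 stood at 0.824, 0.978 and 1.26 FPKM in CIRBP and at 466, 546 and 659.5 FPKM under the si-CIRBP label, where no library was far below the others. Ccl2 stood at 40.0, 31.5 and 47.5 against 1467, 357.5 and 446 FPKM, and Fgfr3 at 30.9, 29.9 and 30.7 against 8.97, 10.5 and 10.7 FPKM. Kcnn1, lower in si-NC, was at 1.43, 1.68 and 1.92 FPKM in CIRBP and 1.69, 1.66 and 1.76 FPKM under the si-CIRBP label (0.02, adjusted p = 0.904 with limma), and whether the difference between the pairs is larger than its error was not tested.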

How the data were processed

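Poly-A RNA libraries were sequenced in pairs per the labels' protocols, and 6 of 12 were used, grouped by title. FPKM per gene were deposited by the authors. Bowtie2 2.3.3.1 and Cufflinks 2.2.1 are named per the submitters' processing notes, with mouse builds, although the gene identifiers are rat Ensembl identifiers. No source used here gives the strand setting or how copies with near-equal sequence were counted, so members of families such as chemokines, Mx and Hsp are uncertain one by one. The files give no gene coordinates. Of 18344 rows, 13325 with at least 1 FPKM in 3 or more of the 6 libraries were tested with limma 3.58.1 (eBayes with a trend, 4 residual and 2.49 prior degrees of freedom) in R 4.3.3 on log2(FPKM + 1), with two-sided p-values adjusted by Benjamini and Hochberg's method and called under 0.05. A fold change on this scale understates the change of low genes. Of these rows 1174 were transcripts assembled by the authors. FPKM hold no absolute depth, so no counting interval was computed, and a value of 0 is given only as listed. The script was tested on simulated data.

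Named genes were the 15 largest increases and 15 largest decreases among called genes whose groups did not overlap and whose higher mean was at least 5 FPKM, the called members of each list with the lowest adjusted p (4 at most), Cirbp and Rbm3, and the members of the myogenic, cardiac, Y-linked and astrocyte lists. Rows with provisional, shared or small RNA names were left out of that rule. The members, the lists and this rule were chosen with earlier results of these data known, and lists were matched by symbol. Alternatives were other pseudocounts, filters, scalings and variance models, all 12 libraries in 1 fit, a replicate block and leaving out each library. Some genes and lists are not reported here.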

Additional observations from a re-analysis of the deposited data

How the results depend on the processing

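Leaving out single libraries moved the count of genes called between si-NC and NC from 1608 to 6542 against 4589, and the count at 1 or more on the log2 scale from 177 to 507 against 311. The latter was 603 with a pseudocount of 0.1 and 153 with a filter of 5 FPKM, both beyond that range. For si-CIRBP against CIRBP leaving out single libraries gave 3624 to 8586 calls against 5585. Leaving out a library also leaves fewer samples; the cause of these differences was not tested. Cirbp kept its direction and call in each alternative run. Nfkb1, not called, changed sign after scaling by median ratios (0.0390 on the log2 scale) and without si-NC library 2 (-0.159 to 0.04999 over the libraries left out), as did Nfkb2 after scaling by median ratios (0.0133), and no other named gene changed sign. Of the 176 named genes with a test, 94 kept their side of the threshold in each alternative that gave a value. Replicates share numbers between the groups, but the deviations of same-numbered libraries correlated at 0.003, -0.036 and -0.044 across genes, so the numbers were not taken to pair them. A fit with the replicate number as a block called 3021 genes. Depth is unknown, so low values carry no counting limit.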

Other observations

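Some rows varied far more within NC than the rest. Of 9987 tested rows with an NC value of at least 5 FPKM, 56 (0.561%) had a highest NC value at least 4 times the lowest, and 2 of these were called. The chaperone Hsp90aa1 stood at 25.6, 22.1 and 2.62 FPKM in NC and 23.5, 11.5 and 28.3 FPKM in si-NC. The ribosomal protein gene Rpl8 stood at 198, 1.19 and 2.40 FPKM in NC and 2.05, 260.4 and 2.80 FPKM in si-NC. Tma7, one of the genes near absent in NC, stood at 0.593, 0.529 and 0.313 FPKM in NC and 26.0, 0.474 and 0.647 FPKM in si-NC, so library 1 held all of its increase. What sets these rows apart was not tested.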
